A study of Mus musculus with 6 samples.

Results

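The small heat shock proteins are a family of chaperones that share the alpha-crystallin domain, and BAG3 is a co-chaperone that several of them work with. The set described here held 8 genes chosen by symbol from the 21741 distinct symbols of the count tables: Hspb1, Hspb2, Hspb3, Hspb6, Hspb7, Hspb8, Cryab and Bag3. All 8 were found and all 8 passed the filter on low counts. The rule that picks them uses symbols and no measured value, though the set was drawn up with earlier results of these data known.

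RNA was sequenced from mouse primary cardiomyocytes, heart muscle cells taken directly from tissue. In the Adv-ABHD11 group (3 libraries) the genotype was given as ABHD11 overexpression, ABHD11 being a mitochondrial hydrolase. In the Adv-NC group (3 libraries) it was given as WT. The labels do not spell out Adv, the usual short form of an adenoviral vector, or NC. All cells of both groups then spent 24 h in hypoxia, and every library carried the same batch number. The age and strain of the animals and the species of the transgene are not given in the labels, nor is it said whether replicates were separate cultures. The p-values therefore cover the spread among these libraries alone, and that spread may be technical.

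Small heat shock proteins bind partly unfolded proteins without using ATP and keep them from aggregating until other chaperones can refold or clear them. In heart and skeletal muscle they sit at the Z disc, desmin filaments and actin, where repeated stretch unfolds proteins. BAG3 joins HSPB8 to the ATP-driven HSP70 machine and passes clients on to autophagy, a route called chaperone-assisted selective autophagy. The transcription factor HSF1 switches on part of the family under stress, whereas other members are made mainly in muscle. By these textbook roles Hspb1, Hspb8 and Bag3 were set as stress-induced, Hspb2, Hspb3, Hspb6 and Hspb7 as muscle-enriched, and Cryab as both. The classes were set with earlier results of these data known, so the contrast between them is a description and not a test.

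The libraries held 16291160 to 20336832 counts, and a single count equalled 0.0492 to 0.0598 CPM on the TMM-scaled library sizes used throughout. Across genes, log2 CPM correlated at 0.987 to 0.992 within groups and at 0.926 to 0.937 between groups. Genes encoded by mitochondrial DNA took 4.99% to 7.67% of counts with Adv-ABHD11 and 2.36% to 2.55% with Adv-NC. Mouse Abhd11 itself was 1.16-fold higher in the Adv-ABHD11 libraries (95% interval 1.001 to 1.34, edgeR adjusted p = 0.0765), short of the threshold of an adjusted p under 0.05. Of the 20 cardiomyocyte markers 19 were higher and 0 lower (median log2 fold change 0.913), and their summed level ran from 56786 to 61121 CPM with Adv-ABHD11 and from 31013 to 32715 CPM with Adv-NC. Other cell types differed too: of 13 endothelial markers 9 were higher and 0 lower, of 10 smooth muscle markers 7 were higher and 0 lower, of 10 fibroblast markers 2 were higher and 5 lower, and of 8 epicardial markers 1 was higher and 6 lower. Of 10 leukocyte markers 2 were higher and 3 lower. For all of these lists, the shares over all tested genes were 29.9% higher and 29.5% lower. The 8 lung epithelial markers summed to 125.5 to 135.6 CPM with Adv-ABHD11 and to 0.162 to 0.313 CPM with Adv-NC, where 6 of them, among them Scgb1a1 and Sftpc, were at 0. The 7 red cell markers summed to 22.8 to 26.0 CPM with Adv-ABHD11 and to 0.313 to 0.648 CPM with Adv-NC, where Hba-a1, Alas2 and Slc4a1 were among those at 0. Of 12 skeletal muscle markers 4 were tested, 2 of them higher, and the regulators Myod1 and Myog were at 0 in all libraries. The part of these other cells in the results below was not tested, and in such bulk samples fewer cells of a type and less RNA per cell cannot be told apart.

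The stress-induced members fell and most of the muscle-enriched members rose. Bag3, Hspb1 and Hspb8 were all lower with Adv-ABHD11, with a median log2 fold change of -0.59. Hspb3, Hspb6 and Hspb2 were higher, as was Cryab, while Hspb7 was slightly lower. The 4 muscle-enriched members had a median log2 fold change of 0.76, against 0.016 over all 12790 genes tested. Their summed level hardly differed, at 1308 ± 54.7 CPM with Adv-ABHD11 and 1236 ± 96.65 CPM with Adv-NC (SD, n = 3 each), overlapping ranges. Without Hspb7 the sum was 523 ± 39.35 CPM with Adv-ABHD11 and 307.5 ± 15.5 CPM with Adv-NC, with no overlap. That sum was not planned, and it had to be higher, because Hspb2, Hspb3 and Hspb6 were each higher without overlap. In all, 4 of 8 members were higher and 4 lower, and all 8 passed the test. Changes were common in these libraries, with 29.9% of all tested genes higher, 29.5% lower and 59.3% called in either direction. The groups did not overlap in any of the 8 members, against 63.2% of all tested genes.

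**Figure D1:**
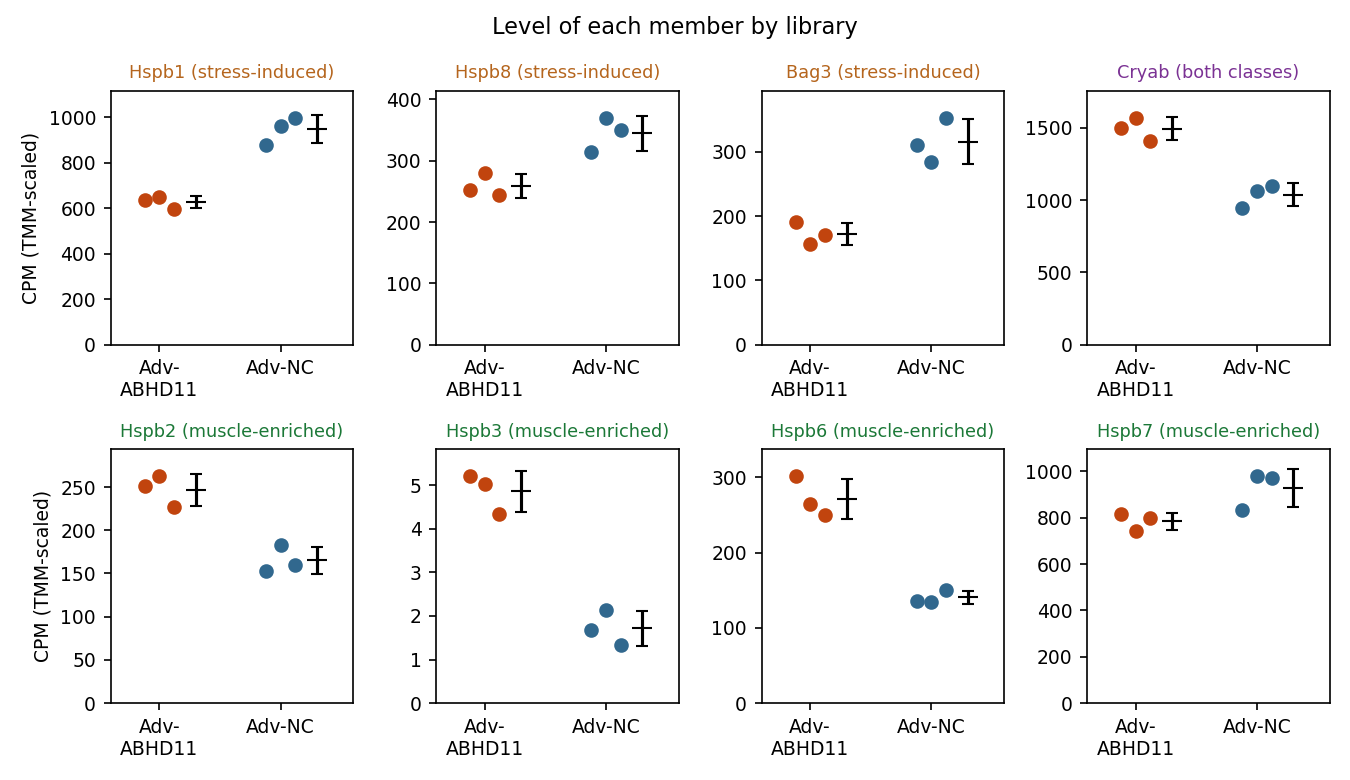
Level of each member in CPM on TMM-scaled library sizes, one point per library, with the mean and SD of each group (n = 3) in black; each vertical axis starts at 0. Hspb1, Hspb8, Bag3 and Hspb7 are lower and Cryab, Hspb2, Hspb3 and Hspb6 higher in the Adv-ABHD11 libraries, with no overlap in any panel.

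Bag3, the scaffold of the family's autophagy route, changed most among the stress-induced members. Its level was 190.3, 156.7 and 170.0 CPM in the Adv-ABHD11 libraries, against 310.3, 284.9 and 353.1 CPM in the Adv-NC libraries. Every Adv-ABHD11 library lay below every Adv-NC library. The means were 172 ± 16.9 CPM with Adv-ABHD11 and 316 ± 34.4 CPM with Adv-NC (SD, n = 3 each), a 1.84-fold decrease with a log2 fold change of -0.88 ± 0.10 (SE; edgeR quasi-likelihood test, adjusted p = 7.32e-07). Of all tested genes, 79.8% had a smaller difference in size. This share was 63.3% for Hspb1, 48.3% for Hspb8, 58.2% for Cryab and 62.1% for Hspb2. It was 82.5% for Hspb6, 92.7% for Hspb3 and 29.5% for Hspb7.

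Hspb1, the mouse HSP25, protects actin filaments under stress. It stood at 637, 648 and 599 CPM in the Adv-ABHD11 libraries, against 879, 963 and 999 CPM in the Adv-NC libraries. The groups were well apart, and the spread was narrow in both. The means were 628 ± 25.6 CPM with Adv-ABHD11 and 947 ± 61.6 CPM with Adv-NC (SD, n = 3 each), 1.51-fold lower (log2 fold change -0.59 ± 0.0916, edgeR adjusted p = 2.45e-05).

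Hspb8, the partner that BAG3 holds in the complex, had 252, 280 and 244 CPM in the Adv-ABHD11 libraries, against 314, 370 and 350 CPM in the Adv-NC libraries. The highest Adv-ABHD11 library still lay under the lowest Adv-NC library. Hspb8 was 1.33-fold lower (log2 fold change -0.41 ± 0.0924, edgeR adjusted p = 0.000912). The sum of Hspb1, Hspb8 and Bag3 was 1059 ± 39.8 CPM with Adv-ABHD11 and 1608 ± 99.6 CPM with Adv-NC (SD, n = 3 each).

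The ratio of Bag3 to its partner Hspb8 was lower in the Adv-ABHD11 libraries. Bag3 stood at 0.754, 0.559 and 0.696 times the CPM of Hspb8 in the Adv-ABHD11 libraries, against 0.988, 0.770 and 1.009 times in the Adv-NC libraries, a ratio that does not depend on how libraries are scaled. The groups did not overlap, though the highest Adv-ABHD11 value was close to the lowest Adv-NC value. The mean log2 ratio differed by -0.46 (exact permutation test, two-sided, p = 0.1, adjusted over 4 ratios 0.133). With 3 libraries against 3 the exact permutation test cannot go below p = 0.1, so no ratio could pass.

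The promoters of the members were read for the heat shock element, the DNA word that HSF1 binds, which is built from inverted GAA units. RefSeq promoters of GRCm38.p6, with 250 bases before and 50 after the annotated start, were found for 6 members (7 promoters, with 2 for Hspb6). None was available for Cryab and Hspb2, which were both higher. The letters GAANNTTC, which read the same on both strands, occurred in 5 of the 7 and in 7.86% of 32851 promoters of this length. Among the 12969 promoters of tested genes the share was 5.59%. The windows below show each such match in capitals, 5′ to 3′ on the strand of the gene, and are given because Bag3, Hspb1 and Hspb8, which were lower, hold it, as do Hspb6 and Hspb3, which were higher.
Bag3 (chr7:128523603-128523632, plus strand): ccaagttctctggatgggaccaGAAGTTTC
Hspb1 (chr5:135887791-135887820, plus strand): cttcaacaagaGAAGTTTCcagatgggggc
Hspb1 (chr5:135887811-135887840, plus strand): agatgggggcaGAACCTTCctggccccgcc
Hspb8 (chr5:116422844-116422873, minus strand): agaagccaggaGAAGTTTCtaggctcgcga
Hspb6 (chr7:30553170-30553199, plus strand): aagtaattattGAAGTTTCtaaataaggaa
Hspb3 (chr13:113663882-113663911, minus strand): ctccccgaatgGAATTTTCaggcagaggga
Bag3, Hspb1, Hspb8 and Hspb6 held the same 8 letters, GAAGTTTC, in 4 of the 7 promoters and, on either strand, in 1.21% of all promoters. That exact word was chosen after the promoters had been read. In the Hspb1 promoter the match began 117 bases before the start and in the Hspb6 promoter 120 bases before it, whereas it lay after the start in Hspb8 (from base 3) and in Bag3 (from base 43). The inverse spacing TTCNNGAA was in 0 of the 7 promoters and in 8.52% of all. A run of 3 units, GAANNTTC followed by NNGAA on either strand, contains TTCNNGAA and so had to be absent from the 7. It was in 0.603% of all promoters. A match is a description of letters and not a measured binding site, and it stood in promoters of Hspb6 and Hspb3, which rose, as well as of the members that fell. The Hspb7 promoter and the other Hspb6 promoter held none of these words.

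Cryab, alpha-B-crystallin, guards desmin filaments and is both abundant in heart and inducible by stress. It rose, unlike the stress-induced members. Its level was 1502, 1570 and 1410 CPM in the Adv-ABHD11 libraries, against 947, 1065 and 1101 CPM in the Adv-NC libraries. All Adv-ABHD11 libraries were above all Adv-NC libraries. The means were 1494 ± 80.5 CPM with Adv-ABHD11 and 1037 ± 80.6 CPM with Adv-NC (SD, n = 3 each), 1.44-fold higher (log2 fold change 0.53 ± 0.0968, edgeR adjusted p = 0.000148).

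Hspb2, which binds the myotonic dystrophy kinase DMPK, is the head-to-head neighbour of Cryab. It had 251, 263 and 227 CPM in the Adv-ABHD11 libraries, against 153, 183 and 160 CPM in the Adv-NC libraries. The groups were as clearly separated as for Cryab. Hspb2 was 1.49-fold higher (log2 fold change 0.58 ± 0.0939, edgeR adjusted p = 4.27e-05).

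The counts of this gene pair were not separate measurements. Of the 8 members, Cryab and Hspb2 were the only 2 with fractional expected counts, and in all 6 libraries their fractions added up to a whole number (within 0.005), as when some reads are divided between the genes. In the GENCODE M21 annotation of GRCm38, Hspb2 (ENSMUSG00000038086.4, chr9:50751078-50752354, minus strand) and Cryab (ENSMUSG00000032060.10, chr9:50751325-50756636, plus strand) overlap. The exons overlap in 1 of 6 Cryab transcripts: Cryab-206 shares 252 exonic bases with Hspb2, whose exons cover 834 bases. Hspb2 was given 14.3%, 14.3% and 13.8% of the joint counts in the Adv-ABHD11 libraries and 13.9%, 14.7% and 12.7% in the Adv-NC libraries, overlapping ranges. Cryab was 5.98, 5.98 and 6.22 times the CPM of Hspb2 in the Adv-ABHD11 libraries and 6.19, 5.82 and 6.88 times in the Adv-NC libraries, a difference in mean log2 ratio of -0.05 (exact permutation test, two-sided, p = 0.7, adjusted over 4 ratios 0.7). Counted as 1 locus, whose total does not depend on the division, the pair was 1.45-fold higher (log2 fold change 0.53 ± 0.0975, edgeR adjusted p = 0.000139), at 1753, 1833 and 1636 CPM in the Adv-ABHD11 libraries and 1100, 1248 and 1261 CPM in the Adv-NC libraries.

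Hspb6, the mouse HSP20, is a phosphoprotein that acts on actin and on calcium handling in cardiac and smooth muscle. It was at 301, 264 and 249.5 CPM in the Adv-ABHD11 libraries, against 136, 135 and 151 CPM in the Adv-NC libraries. The lowest Adv-ABHD11 library was far above the highest Adv-NC library. The means were 272 ± 26.8 CPM with Adv-ABHD11 and 140 ± 8.95 CPM with Adv-NC (SD, n = 3 each), 1.93-fold higher, with the smallest adjusted p of the set (log2 fold change 0.95 ± 0.0936, edgeR adjusted p = 1.13e-07). Proser3 and Lin37 overlap Hspb6 on the other strand. Whether the counting used strand was not given, and the expected count of Hspb6 was whole in all 6 libraries, unlike those of Cryab and Hspb2.

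Hspb3, a muscle-specific member that forms a complex with HSPB2, had the largest fold change and by far the lowest level. It had 87, 91 and 88 counts in the Adv-ABHD11 libraries, against 31, 41 and 26 counts in the Adv-NC libraries. That is 5.202, 5.03 and 4.33 CPM with Adv-ABHD11 and 1.67, 2.14 and 1.33 CPM with Adv-NC, 2.82-fold higher with a 95% interval of 2.00 to 3.96 (log2 fold change 1.495 ± 0.234, edgeR adjusted p = 2.82e-05). Counting error was of the size of its whole spread, with a coefficient of variation of 9.54% with Adv-ABHD11, where counting alone gives 10.6%, and of 23.5% with Adv-NC, where counting alone gives 17.5%. The other 7 members had at least 2514 counts in every library.

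Hspb7, the cardiovascular small heat shock protein that binds filamin C and is needed for thin filament assembly, did not rise with the other muscle-enriched members. It was at 814, 743 and 798 CPM in the Adv-ABHD11 libraries, against 835, 979 and 973 CPM in the Adv-NC libraries. The groups did not overlap, but the highest Adv-ABHD11 library was close to Adv-NC replicate 1. Hspb7 was 1.18-fold lower (log2 fold change -0.24 ± 0.0953, edgeR adjusted p = 0.0358). This call was lost under 8 of 14 alternatives, among them upper-quartile scaling (log2 fold change -0.13, adjusted p = 0.207) and removal of the trend on GC content and transcript length (-0.07, adjusted p = 0.347). It was also lost without any single Adv-ABHD11 replicate or without Adv-NC replicate 2 or 3 (adjusted p between 0.0571 and 0.117), while the value stayed negative throughout.

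The ratio of Hspb6 to Hspb7, which no scaling of the libraries can move, was higher in the Adv-ABHD11 libraries. Hspb6 stood at 0.371, 0.355 and 0.313 times the CPM of Hspb7 in the Adv-ABHD11 libraries, against 0.163, 0.138 and 0.155 times in the Adv-NC libraries. The ratio was 2.28-fold higher with Adv-ABHD11, with no overlap (two-sided exact permutation p = 0.1, adjusted over 4 ratios 0.133). The ratio of Hspb1 to Hspb7 was lower, with Hspb1 at 0.783, 0.872 and 0.751 times its CPM in the Adv-ABHD11 libraries, against 1.05, 0.985 and 1.03 times in the Adv-NC libraries. The mean log2 ratio differed by -0.35 (exact permutation test, two-sided, p = 0.1, adjusted 0.133).

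**Figure D2:**
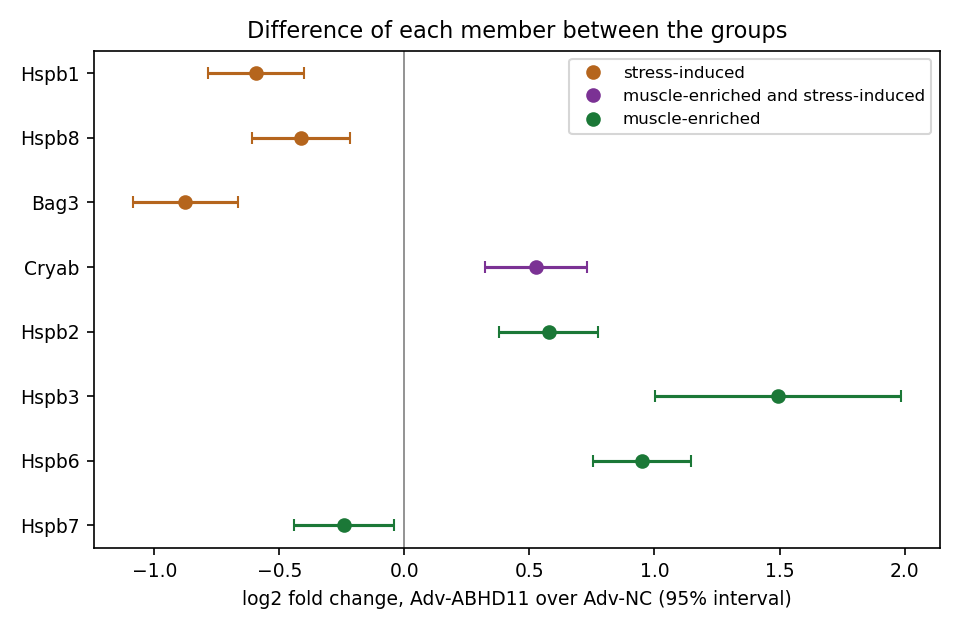
Log2 fold change of each member, Adv-ABHD11 over Adv-NC, with its 95% interval from the edgeR fit; colour marks the class and the grey line marks no difference. The interval of Hspb7 (-0.44 to -0.04) comes nearest to 0, and Hspb3 has the widest (1.003 to 1.99).

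The sum of the 8 members hardly differed, while its make-up did. Together they had 3953, 3930 and 3701 CPM in the Adv-ABHD11 libraries, against 3575, 3982 and 4088 CPM in the Adv-NC libraries, overlapping ranges with a ratio of means of 0.995. The share of Cryab in this pool was 38.7 ± 1.11% with Adv-ABHD11 and 26.7 ± 0.226% with Adv-NC (SD, n = 3 each). Hspb1 made up 16.3 ± 0.195% with Adv-ABHD11 and 24.4 ± 0.196% with Adv-NC. Bag3 made up 4.46 ± 0.428% with Adv-ABHD11 and 8.16 ± 0.868% with Adv-NC, and Hspb6 made up 7.03 ± 0.517% with Adv-ABHD11 and 3.62 ± 0.211% with Adv-NC.

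**Figure D3:**
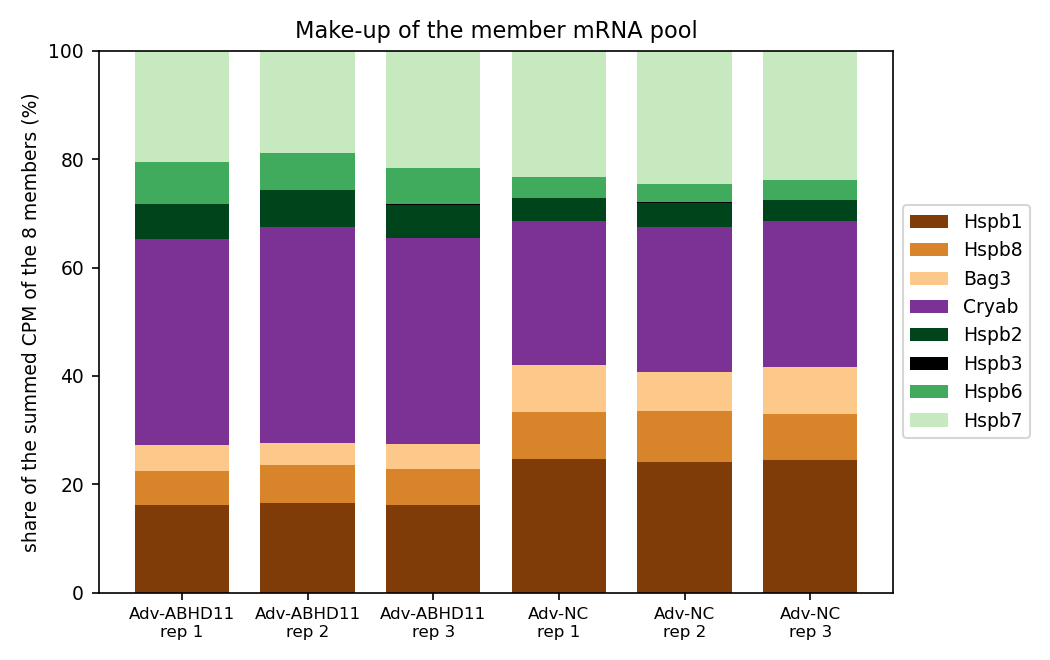
Share of each member in the summed CPM of the 8 members, 1 bar per library, with the Adv-ABHD11 libraries on the left. Cryab takes 38.0% to 39.96% in the Adv-ABHD11 libraries and 26.5% to 26.9% in the Adv-NC libraries, while Hspb1 takes 16.1% to 16.5% in the Adv-ABHD11 libraries and 24.2% to 24.6% in the Adv-NC libraries.

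Per transcript length, Cryab and Hspb1 were the highest members in both groups. On a TPM scale computed from the counts and the length of the longest principal transcript, Cryab was the highest member with Adv-ABHD11 at 2454 ± 96.4 TPM, ahead of Hspb1 at 1277 ± 66.6 TPM. With Adv-NC, Hspb1 led at 1948 ± 45.7 TPM, ahead of Cryab at 1724 ± 55.9 TPM (SD, n = 3 each). The order of these genes with Adv-NC depended on the length given to Cryab: with the 946 bases of Cryab-201 in place of 1117, chosen after the values were seen, Cryab had 2035 ± 66.0 TPM and its libraries overlapped those of Hspb1. With Adv-ABHD11 Cryab led at either length. The order with Adv-ABHD11 then ran Hspb2 (585 TPM), Hspb7 (522), Hspb6 (367), Hspb8 (261), Bag3 (124) and Hspb3 (11.4). With Adv-NC it ran Hspb7 (622 TPM), Hspb2 (397), Hspb8 (352), Bag3 (230), Hspb6 (192) and Hspb3 (4.08). Neighbours in the order barely differed in several places: the lowest Hspb2 library (564 TPM) was next to the highest Hspb7 library (560 TPM) with Adv-ABHD11, and with Adv-NC the lowest Bag3 library (200.5 TPM) was less than 1 TPM above the highest Hspb6 library. Apart from Hspb3, every member ranked above the 91st percentile of tested genes on this scale in both groups.

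Set against the summed cardiomyocyte markers, most members were lower, among them Cryab and Hspb2, which rose in CPM, but not Hspb6 or Hspb3. The summed cardiomyocyte markers were 1.85 times as high with Adv-ABHD11. Single markers ran from 0.994-fold (Csrp3) to 7.64-fold (Myh7), so the direction for Cryab and Hspb2 depends on the markers taken. Per 1000 CPM of these markers, a ratio chosen after the values were seen, Cryab stood at 24.9, 25.7 and 24.8 CPM in the Adv-ABHD11 libraries, against 28.9, 32.9 and 35.5 CPM in the Adv-NC libraries. Hspb2 stood at 4.17, 4.29 and 3.99 CPM in the Adv-ABHD11 libraries, against 4.67, 5.66 and 5.16 CPM in the Adv-NC libraries. Both were thus lower on this scale, without overlap, and higher in CPM. Hspb6 overlapped, at 4.57 ± 0.374 CPM with Adv-ABHD11 and 4.39 ± 0.407 CPM with Adv-NC, and Hspb3 was the only one of the 8 that was higher without overlap, at 0.0816 ± 0.00508 CPM with Adv-ABHD11 and 0.0534 ± 0.0117 CPM with Adv-NC (SD, n = 3 each). Hspb7 was 2.19 times lower, Hspb8 2.47 times, Hspb1 2.80 times and Bag3 3.40 times lower on this scale. No test was made of these ratios.

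The partners of BAG3 in chaperone-assisted selective autophagy moved in both directions. Of 16 genes tested, 4 were higher and 8 lower, where 29.9% of all tested genes were higher and 29.5% lower. The median log2 fold change was -0.21, against 0.016 over all tested genes. Sqstm1, the autophagy receptor p62, fell to 994 ± 37.6 CPM with Adv-ABHD11, against 4424 ± 362 CPM with Adv-NC. Filamin C (Flnc), the Z-disc client of the route, was at 312 ± 44.6 CPM with Adv-ABHD11 and 704 ± 91.4 CPM with Adv-NC, 2.26-fold lower. Ywhag, a 14-3-3 protein that binds BAG3, was 2.22-fold lower, and Vps18, of the complex that tethers autophagosomes to lysosomes, 1.98-fold lower. The muscle scaffold Synpo2, which recruits BAG3 to the membrane fusion machinery, rose instead, to 25.6 ± 1.72 CPM with Adv-ABHD11 against 7.29 ± 1.21 CPM with Adv-NC, and its relative Synpo2l was 2.18-fold higher (edgeR adjusted p of these 6 genes at or below 1.03e-07). Stub1, the ubiquitin ligase CHIP, stood at 147 ± 17.0 CPM with Adv-ABHD11 and 153 ± 8.86 CPM with Adv-NC (adjusted p = 0.625). Hspa8, the constitutive HSP70, was 1.18-fold lower (adjusted p = 0.0423), a call lost under 5 alternatives, upper-quartile scaling among them.

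Among the other 5 BAG genes, 1 was higher and 2 lower, close to the 59.3% of all tested genes called in either direction. Bag2, an inhibitor of CHIP, rose to 66.3 ± 8.65 CPM with Adv-ABHD11, against 30.2 ± 1.23 CPM with Adv-NC (2.19-fold, edgeR adjusted p = 5.19e-08), in the direction opposite to Bag3. Bag6 was 1.42-fold lower (adjusted p = 0.000319). Bag5 was 1.28-fold lower (adjusted p = 0.0161), a call lost on upper-quartile scaling (0.0826) or on leaving out Adv-ABHD11 replicate 1 (0.0767) or Adv-NC replicate 2 (0.0535). Bag1 stood at 154 ± 13.1 CPM with Adv-ABHD11 and 147 ± 13.3 CPM with Adv-NC, and neither it nor Bag4, at 5.30 ± 0.323 CPM with Adv-ABHD11 and 5.499 ± 0.569 CPM with Adv-NC, passed.

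Other heat shock factor targets moved in both directions and by very different amounts. Of 18 genes tested, 5 were higher and 9 lower (median log2 fold change -0.16), where 29.9% of all tested genes were higher and 29.5% lower. Hspa1a, an inducible HSP70, was at 14.7 ± 1.10 CPM with Adv-ABHD11, against 597.5 ± 78.1 CPM with Adv-NC. Its near-identical copy Hspa1b, from which reads cannot be split with certainty, was at 14.85 ± 1.27 CPM with Adv-ABHD11, against 497 ± 59.0 CPM with Adv-NC. Dnajb1, an HSP40 partner of HSP70, was 3.04-fold lower and Hsp90aa1, the inducible HSP90, 1.82-fold lower, whereas Fkbp4, an HSP90 co-chaperone, was 1.42-fold higher (edgeR adjusted p at or below 0.00014 for each). Beside these, Bag3 was 1.84-fold and Hspb1 1.51-fold lower. Hsf1 itself stood at 40.8 ± 2.03 CPM with Adv-ABHD11 and 47.3 ± 3.91 CPM with Adv-NC (adjusted p = 0.0671), which passed without Adv-NC replicate 1 (adjusted p = 0.0335). Hsf2 and Hsf4 did not pass, and Hsbp1, which binds HSF1, was 1.21-fold higher (adjusted p = 0.0168), a call lost without Adv-ABHD11 replicate 2 (adjusted p = 0.0634).

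Z-disc and filament genes, whose proteins the small heat shock proteins guard, were mostly higher. Of 19 tested, 13 were higher and 3 lower, where 29.9% of all tested genes were higher and 29.5% lower. The median log2 fold change was 0.70, and the list shares Actc1, Csrp3, Tcap and Ttn with the cardiomyocyte markers. Desmin (Des), the filament that CRYAB protects, was at 1844 ± 108 CPM with Adv-ABHD11 and 1138 ± 61.1 CPM with Adv-NC, 1.62-fold higher, beside 1.44-fold for Cryab. Fhl2, a LIM protein of the Z disc, was 2.45-fold higher and Myoz2, calsarcin-1, 2.36-fold higher (edgeR adjusted p at or below 6.62e-06 for each). The genes lower in this list were Flnc, Vim and Actb, of which only Flnc is specific to striated muscle.

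**Figure D4:**
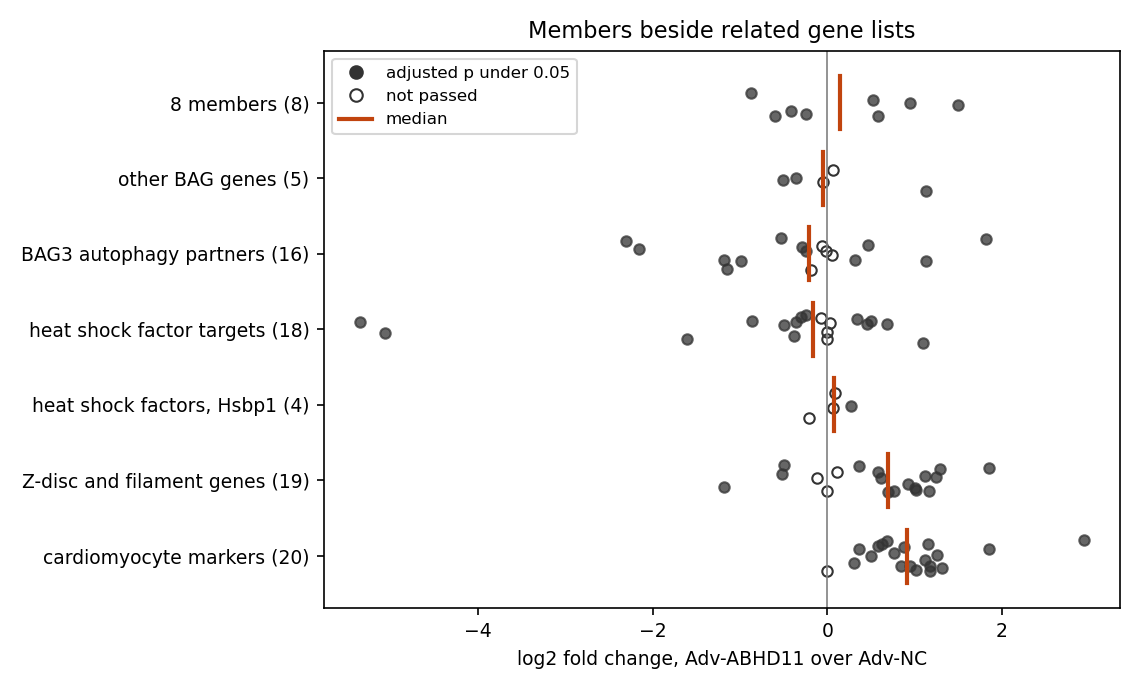
Log2 fold changes, Adv-ABHD11 over Adv-NC, of the 8 members and of genes of 6 related lists, 1 point per tested gene (number in brackets), filled where the adjusted p was under 0.05; the orange line is the list's median and the vertical scatter has no meaning. Heat shock factor targets reach down to -5.34 (Hspa1a), while cardiomyocyte markers centre on 0.913.

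Of 4 other genes listed with the small heat shock family, only Hspb11 passed the filter on low counts. Hspb11, a ciliary protein with a distant resemblance to the family, was at 4.67 ± 1.86 CPM with Adv-ABHD11 and 3.31 ± 0.637 CPM with Adv-NC (edgeR adjusted p = 0.107). Its log2 fold change of 0.49 rested on single libraries: it was 0.67 without Adv-ABHD11 replicate 1, which passed (edgeR adjusted p = 0.0414), and 0.13 without Adv-ABHD11 replicate 2. Hspb9 averaged 0.1065 CPM with Adv-ABHD11 and 0.0516 CPM with Adv-NC, the lens gene Cryaa was at 0 in all Adv-NC libraries and at 0.0363 CPM with Adv-ABHD11, and the sperm gene Odf1 was at 0 in all Adv-ABHD11 libraries and at 0.0711 CPM with Adv-NC. These 3 genes were not tested.

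Profiles across the 6 libraries were compared by the Euclidean distance between centred log2 CPM values, among 9985 genes with a mean CPM above 5. Nearest to Bag3 were Tnks1bp1 (distance 0.0553), Zswim8 (0.0682) and Adgra2 (0.0726). Nearest to Hspb1 were Tbcd (0.0446), Ddx39b (0.0555) and Zc3hc1 (0.0601), and nearest to Hspb8 were Xbp1 (0.0377), Rpl8 (0.0458) and Upk3b (0.0473). Cryab lay nearest to Cox8a (0.0770), Hspb2 to Acaa2 (0.0751), Hspb6 to Igf2 (0.120) and Hspb3 to Crhr2 (0.219). Tmem138 (0.0654) and Hsf1 (0.0808) were nearest to Hspb7. Among the 28 pairs of members, Cryab and Hspb2 were closest (0.190), and they share reads, followed by Hspb1 and Hspb8 (0.258) and by Hspb8 and Hspb7 (0.322). Bag3 and Hspb3, with the lowest and highest log2 fold changes of the set (-0.88 and 1.495), were farthest apart (2.95). The values were centred but not scaled, so these distances largely follow the difference between the groups.

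**Figure D5:**
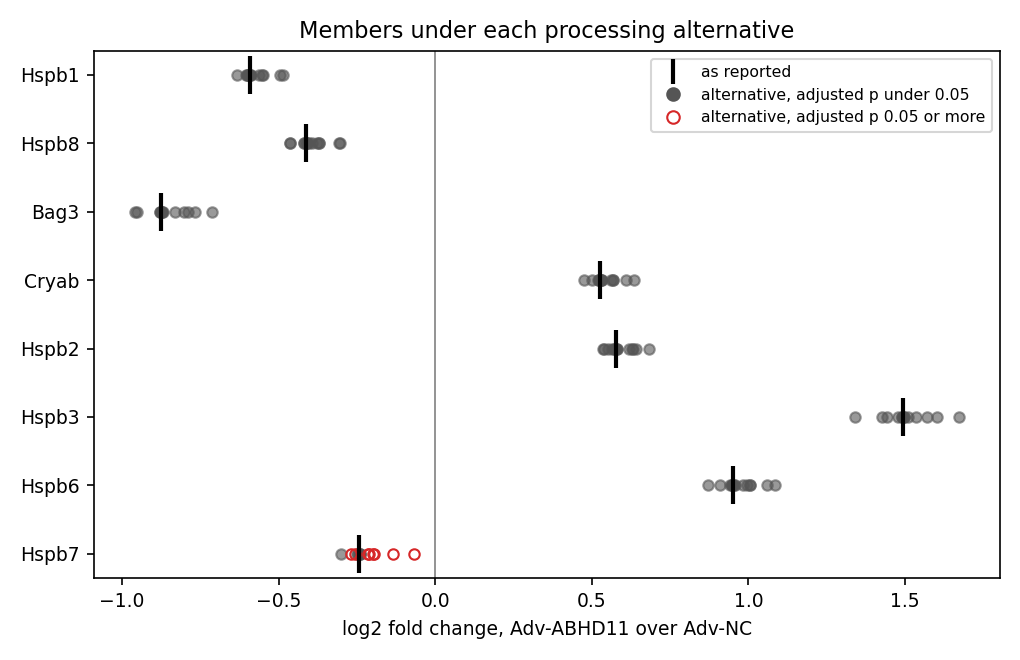
Log2 fold change of each member, Adv-ABHD11 over Adv-NC, as reported (black bar) and under 14 processing alternatives; grey points passed an adjusted p of 0.05 and open red points did not. Every value keeps its sign, from 0.476 to 0.634 for Cryab and from -0.957 to -0.714 for Bag3, and the 8 open points all belong to Hspb7.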

How the data were processed

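The authors deposited 1 table per library with unscaled expected counts per gene symbol. The submitters' processing notes list Trimmomatic 0.39, HISAT2, RSEM, DESeq2 and build mm10, with no roles. Annotation and strandedness are not given in the sources used here. As a tool, RSEM divides reads that fit several genes by an estimate, which affects Cryab with Hspb2.

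Each table held 21763 rows. Of 22 rows repeating a symbol (0.009% of counts), the one with fewer counts was dropped. Counts were rounded to whole numbers and fitted with edgeR 4.0.16 in R 4.3.3: filterByExpr (minimum count 10, minimum total 15), TMM scaling, quasi-likelihood F test, Benjamini-Hochberg adjustment over 12790 genes, threshold 0.05. Standard errors were taken as |log2 fold change| over the root of F. CPM were computed on TMM-scaled sizes and are given as mean ± SD (n = 3). Counting error is the Poisson error only.

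Ratios of members were compared by exact permutation. Lengths and coordinates came from GENCODE M21 (GRCm38, also named mm10), promoters from RefSeq (GRCm38.p6). On simulated data for this comparison (12682 genes) 50 genes were altered per fold size. The test found 27 at 1.5-fold, 41 at 2-fold, 50 at 4-fold and 48 at 8-fold, and 9 of 175 calls were false. A far smaller share of genes was altered there than the 59.3% called in the real libraries, so these rates may not carry over.

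The members, classes and lists were chosen with earlier results of these data known. Named genes were all members, the 6 smallest adjusted p per pathway list, all tested BAG genes and heat shock factors, 3 markers of highest CPM per cell type list, and the 3 nearest profiles per member, of which those the results turn on are printed. Hspa8, Stub1, Flnc, Des and the genes near the detection floor were added after their values were seen. Alternatives covered scaling, filter, DESeq2 1.42.0, a replicate block, a GC and length trend, mtDNA genes and each library left out.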

Additional observations from a re-analysis of the deposited data

How the results depend on the processing

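Of the 8 members, 7 kept their direction and their side of the threshold under all 14 alternatives, and Hspb7 kept its direction but lost its call under 8 of them. The members counted 4 higher and 4 lower, or 4 and 3 with upper-quartile scaling, with library size only, with the GC and length trend removed, and without any 1 Adv-ABHD11 replicate or Adv-NC replicate 2 or 3; with Cryab and Hspb2 summed to 1 locus, an alternative chosen after seeing the data, they were 3 and 4. Upper-quartile scaling shifted the all-gene median (log2) by 0.107, and 59.7% of calls were then higher, against 50.35% with TMM. The median of the stress-induced members, -0.59, was -0.49 with upper-quartile scaling and with the GC and length trend removed (-0.49), -0.50 with Cryab included and -0.73 without Hspb8. The median of the muscle-enriched members, 0.76, was 0.58 with Cryab included. The cause of these shifts was not tested. The difference of the log2 ratio of Cryab to Hspb2, -0.05, ran from -0.11 to 0.014 when each replicate was left out. Sign changes among other named genes concerned values near 0 that did not pass: Bag4 (0.055 with upper-quartile scaling; -0.13 to 0.026 when each replicate was left out), Stub1 (0.050 with upper-quartile scaling, 0.14 with the GC and length trend removed; -0.13 to 0.022 when each replicate was left out), Hsf2 (-0.099 with the GC and length trend removed), Hsf4 (-0.017 to 0.15 when each replicate was left out), Eng (0.10 with upper-quartile scaling, 0.039 with library size only, 0.15 with the GC and length trend removed; -0.10 to 0.088 when each replicate was left out), Egfl7 (0.052 with the GC and length trend removed) and Tagln (0.0093 with upper-quartile scaling). The causes were not tested. The order of the mean levels of Cryab and Hspb1 per length with Adv-NC turned round with the shorter Cryab transcript, but the libraries of these genes then overlapped. Same-numbered libraries deviated together at correlations of 0.010, 0.204 and -0.104, and differently numbered ones at -0.162 to 0.179. With 3 libraries per group these values cannot decide whether the numbers pair the samples. With the replicate block 3932 genes were higher and 3906 lower, against 3821 and 3768 without it. The members stayed at 4 and 4, and Hsf1 passed (edgeR adjusted p = 0.0465). Depth limits Hspb3 most, with 26 to 91 counts per library.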
